A study of Homo sapiens with 8 samples.

Results

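The genes described here are 43 genes of DNA replication and the S phase of the cell cycle, chosen by gene symbol. They cover origin licensing, activation of the replicative helicase, the polymerases and primase, the sliding clamp with its loader and the lagging-strand enzymes, nucleotide supply, and S-phase entry with chromatin assembly. Among the 39421 array probes, 64 were annotated to them, with 1 probe for 26 genes, 2 probes for 13 and 3 probes for 4. Of the 43 genes, 41 had a probe with a value on all 6 siRNA arrays and a mean above the middle of all probes. GINS1 lacked a value in siCtrl on day 4, and CCNE2 had values on 2 arrays, so neither was compared.

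The cells were SEM, an established human leukaemia line (acute lymphoblastic, of B-cell precursor type) with the MLL/AF4 fusion, and RNA levels were read on Illumina bead arrays. The groups were cells given siRNA against the fusion transcript (siMLL/AF4), harvested on day 2, 4 and 6, cells given a control siRNA (siCtrl) on the same days, and cells electroporated without siRNA (MOCK) on day 2 and 4. All 3 groups are the same single line, and pulses were given up to 3 times at intervals of 2 days. There was 1 array for each treatment and day, which makes 8. The days therefore stand in for replicates, and a p-value reflects how days and arrays vary, not how separate cultures do. Values are log2 signals, converted from deposited values read as natural logs. If those were logs to base 2, every log2 value below would be 0.693 times as large. Day 6 was run on a later version of the array, so differences were taken within a day, and day 6 and array version cannot be told apart. In bulk RNA, fewer cells in S phase and less of an mRNA per cell cannot be told apart.

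Before a cell divides it copies its genome once. In G1, the origin recognition complex with CDC6 and CDT1 loads the ring-shaped MCM2-7 helicase onto origins. In S phase CDC45 and the GINS complex switch the helicase on, primase and the polymerases alpha, delta and epsilon synthesise DNA, and the PCNA clamp, loaded by replication factor C, holds the polymerases in place. Many of these genes are transcribed under E2F factors as cells pass from G1 into S, so their mRNAs are widely used as a readout of proliferation.

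KMT2A and AFF1, the genes joined in the fusion, served as the check of the labels. KMT2A had 7.17, 6.42 and 7.33 with siMLL/AF4 on day 2, 4 and 6, against 7.66, 6.97 and 7.86 with siCtrl, and 7.11 and 6.38 in MOCK on day 2 and 4. The brighter AFF1 probe had 7.90, 7.88 and 7.91 with siMLL/AF4, against 9.92, 9.09 and 8.42 with siCtrl, and 8.50 and 7.75 in MOCK. The second AFF1 probe had 7.16, 6.01 and 4.37 with siMLL/AF4, against 7.50, 7.39 and 6.37 with siCtrl, and 6.01 and 6.07 in MOCK. All 3 probes lay below siCtrl on all 3 days. Against MOCK, KMT2A was lower on neither day, the brighter AFF1 probe on day 2 and not on day 4, and the second AFF1 probe on day 4 and not on day 2. Neither gene passed the knock-down test averaged over the days (limma): the adjusted p was 0.681 for KMT2A and 0.586 for the brighter AFF1 probe. Whether these probes read the fusion transcript or the unfused genes was not determined here. Of the B-cell precursor markers 6 of 9 had a value on all 8 arrays and a mean above the median of all values (IGLL1, CD79A, CD79B, VPREB1, EBF1 and CD22), while PAX5, RAG1 and DNTT did not. Their summed signal was 10087 to 13297 with siMLL/AF4, 9447 to 11277 with siCtrl and 10715 to 15512 in MOCK. Of 6 myeloid markers CSF1R and LYZ reached that level, with sums of 409.8 to 1667 with siMLL/AF4, 385 to 1344 with siCtrl and 393 to 682 in MOCK. Of 6 T and NK cell markers NKG7 did, with sums of 289 to 1339, 397 to 1459 and 692 to 778 in the same order of groups. None of 4 erythroid markers did, with sums of 60.4 to 138, 13.8 to 86.7 and 58.4 to 78.6. Their part in the results below was not tested. Over 14751 probes, the day 6 arrays correlated with the older ones at a median Spearman rho of 0.861 (siMLL/AF4) and 0.906 (siCtrl), while pairs of older arrays gave 0.927 to 0.978.

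The first comparison asked how the replication genes differed between siMLL/AF4 and siCtrl cells on each day. On day 2 most of them were higher with siMLL/AF4, and on day 4 and day 6 most were lower. On day 2, 28 of the 41 measured genes were above siCtrl, against 55.0% of all 9096 genes tested, with a median difference of 0.24 for the replication genes and 0.09 for all genes. On day 4, 37 of 41 were below siCtrl, against 51.8% of all genes, with medians of -0.32 and -0.02. On day 6, 33 of 41 were below, against 55.1% of all genes, with medians of -0.27 and -0.07. These are small shifts of many genes, since differences of at least 2-fold were few. On day 2, 1 gene (CDT1) was at least 2-fold higher, against 7.42% of all genes, and 2 genes (POLE and GMNN) were at least 2-fold lower, against 7.08%. On day 4, 1 gene (CDC6) was at least 2-fold lower, against 4.46%. On day 6, 2 genes were (CDC6 and CCNE1, against 11.0%), while E2F1 was at least 2-fold higher, against 7.96%. With siMLL/AF4 on day 6, CDC6 and CCNE1 lie under 3.48, the 25th percentile of all values, so these 2 folds are uncertain. A single day has no replicate, so these differences were not tested.

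The order of signs over the days was shared widely. Higher on day 2 and lower on day 4 and 6 were 24 of 41 replication genes, 58.5%, against 17.1% of all genes. When MOCK replaced siCtrl for day 2 and 4, 17 of 42 genes had this order, 40.5%, against 12.3% of all 9110 genes. With the mean of siCtrl and MOCK 23 of 41 did, 56.1%, against 17.1% of all 8887 genes. Lower on all 3 days were 7 of 41 genes (CDC6, RFC2, LIG1, GINS2, POLD1, POLE and CHAF1A), against 14.6% of all genes. RFC5 was the only one of the 41 that was higher on all 3 days, against 14.6% of all genes.

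**Figure D1:**
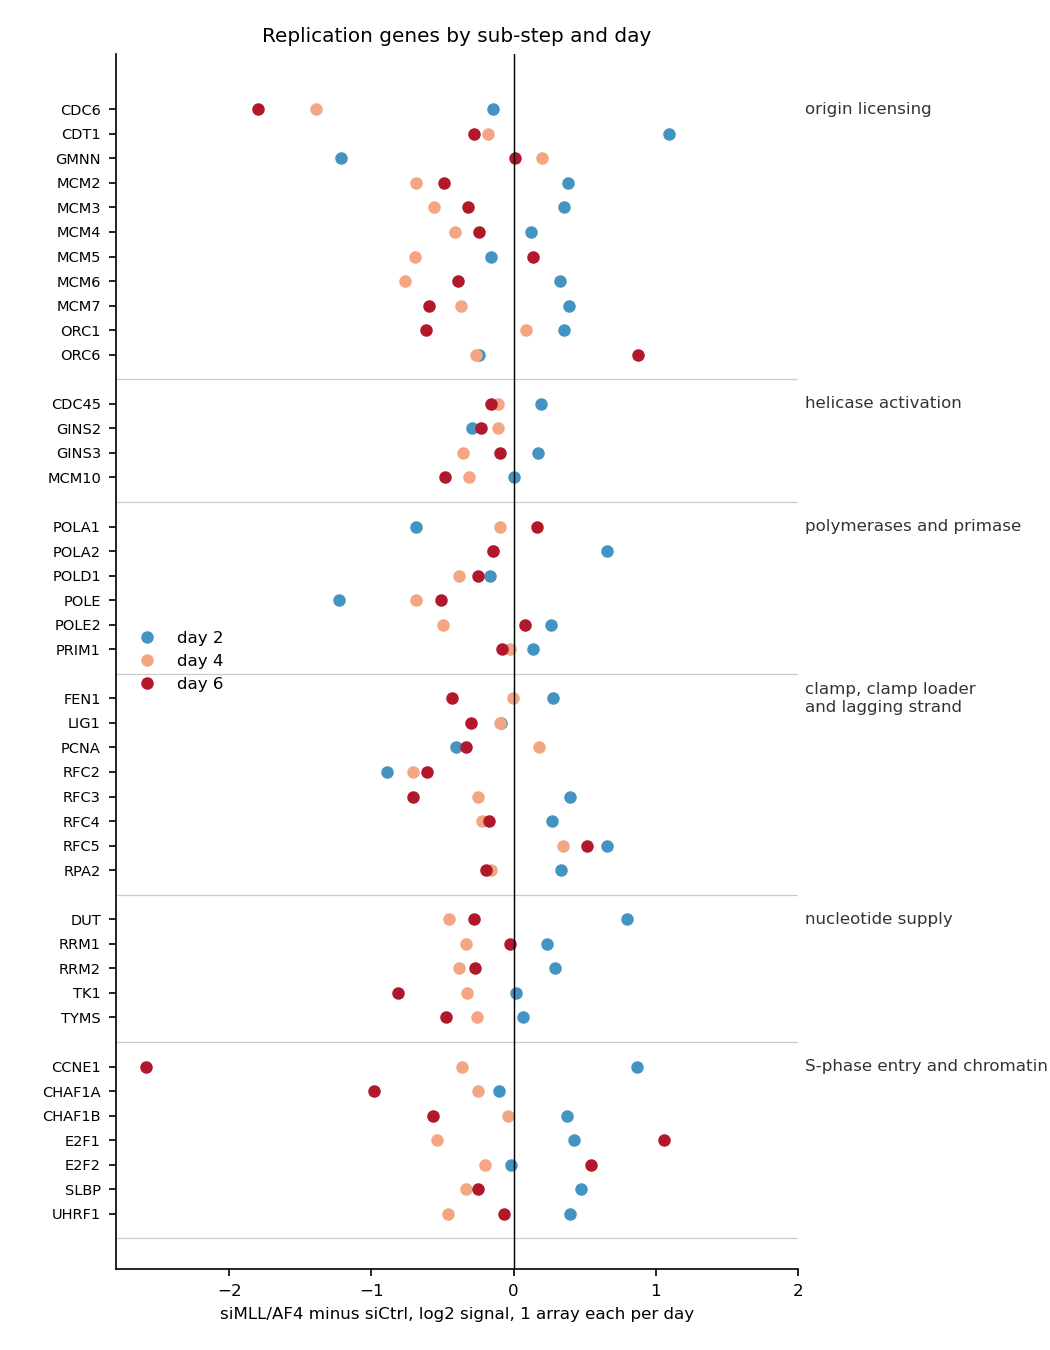
The difference siMLL/AF4 minus siCtrl in log2 signal (x axis) for each of the 41 measured replication genes (y axis, grouped by sub-step), with 1 point for each of day 2, 4 and 6. Most day 2 points lie right of 0 (28 of 41), and most day 4 and day 6 points lie left of it (37 and 33 of 41).

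**Figure D2:**
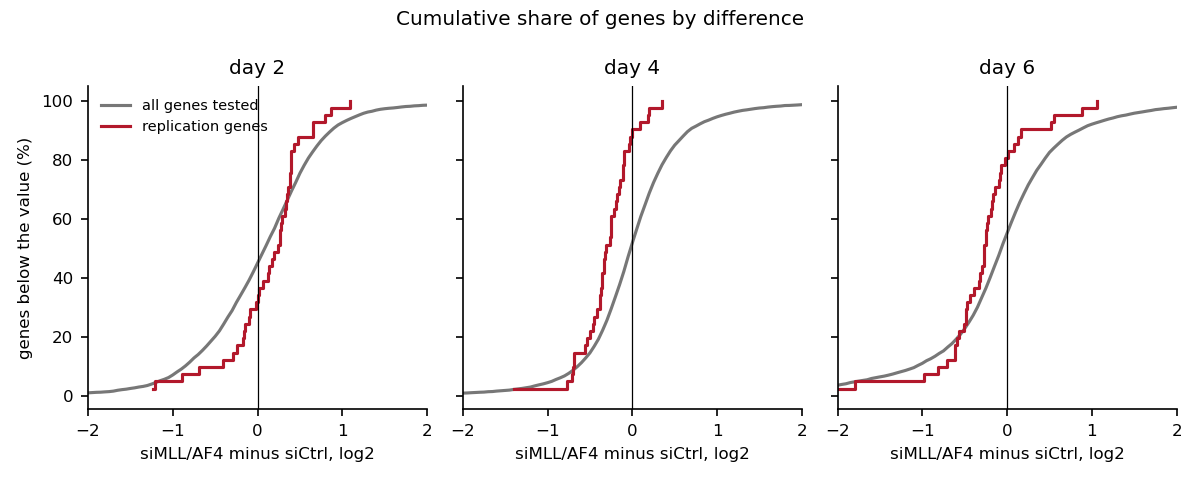
The cumulative share of genes (y axis, percent) below each log2 difference siMLL/AF4 minus siCtrl (x axis) on day 2, 4 and 6, for the 41 replication genes and for all 9096 genes tested. The curve of the replication genes is right of that of all genes at its middle on day 2 (medians 0.24 and 0.09) and left of it on day 4 (-0.32 and -0.02) and day 6 (-0.27 and -0.07).

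Averaged over the 3 days, no gene passed the test. In the limma model with day as a block (two-sided, 2 residual degrees of freedom) 0.00% of the 9096 genes had an adjusted p under 0.05, and 7.39% had an unadjusted p under 0.05. Of the replication genes 3 of 41 had an unadjusted p under 0.05, all of them lower with siMLL/AF4, against 3.49% of all genes lower and 3.90% higher. These were CDC6, POLE and RFC2, described below. Of the 41 genes 33 had a mean difference below 0, against 50.8% of all genes, and their median was -0.16, against -0.01 for all genes. Without day 2, 4 or 6 the count below 0 was 35, 25 or 26 of 41 and the median -0.27, -0.06 or -0.09, so the shift of the mean rests mostly on day 4 and day 6.

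The minichromosome maintenance proteins MCM2 to MCM7 form the ring that unwinds DNA at the fork. MCM2 had 12.58, 11.13 and 10.59 with siMLL/AF4 on day 2, 4 and 6, against 12.19, 11.81 and 11.08 with siCtrl, and 12.42 and 12.18 in MOCK on day 2 and 4. MCM4 had 13.16, 11.80 and 10.99 with siMLL/AF4, against 13.04, 12.21 and 11.23 with siCtrl, and 12.48 and 12.01 in MOCK. At these probes, both genes were highest within a day with siMLL/AF4 on day 2 and lowest with it on day 4. A dimmer MCM4 probe differed on day 2, with 11.12 with siMLL/AF4, against 11.91 with siCtrl and 11.08 in MOCK. On day 4 that probe was lowest with siMLL/AF4, at 10.49, against 10.66 with siCtrl and 10.69 in MOCK. Across the 6 genes, 5 were above siCtrl on day 2 (MCM5 differed by -0.16), all 6 were below it on day 4, with differences of -0.37 to -0.76, and 5 were below it on day 6 (MCM5 differed by 0.13). Set against MOCK in place of siCtrl, 5 of 6 were higher on day 2 and 6 of 6 lower on day 4, with differences of -0.21 to -1.05. The siCtrl arrays themselves lay above MOCK for 5 of 6 on day 2 and 4 of 6 on day 4. Averaged over the days, all 6 had a difference below 0, with a median of -0.22, and none passed the test (limma, adjusted p between 0.906 and 0.932). Over all 10 measured probes of these genes, 2 were below siCtrl on day 2, 10 on day 4 and 8 on day 6. The third MCM7 probe stood apart on day 6, at 1.22, where the other two were at -0.60 and -0.71.

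**Figure D3:**
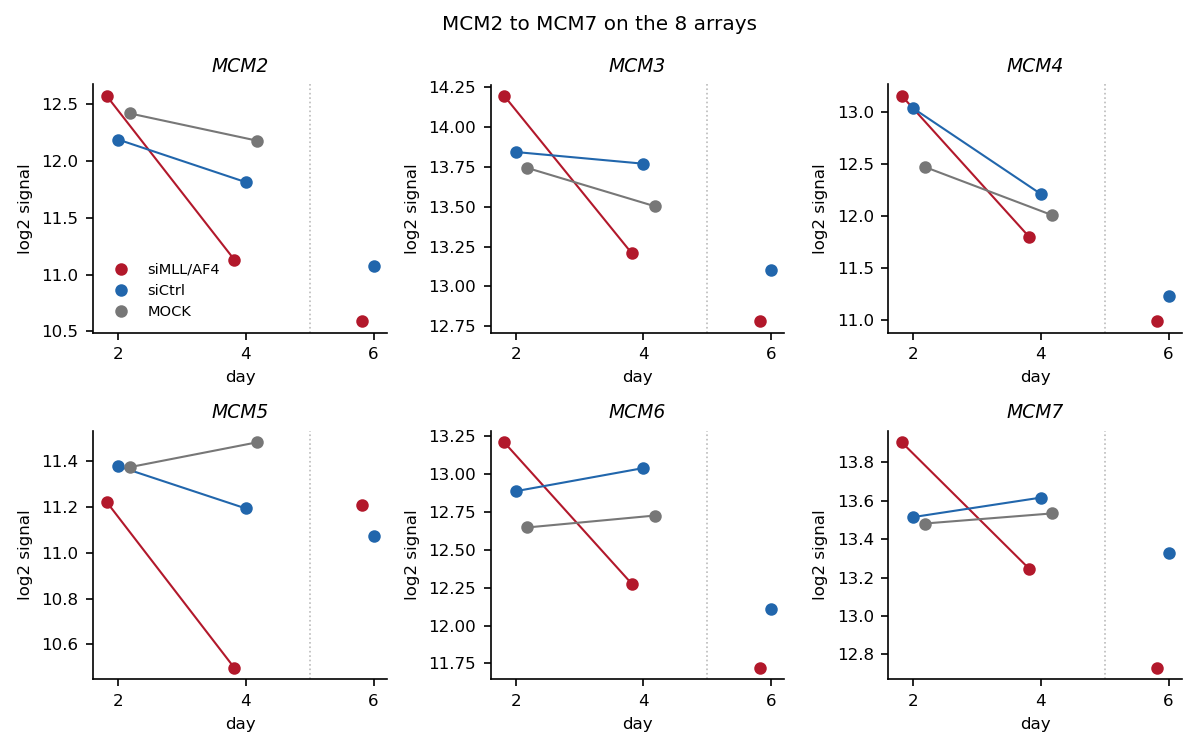
The log2 signal (y axis) of MCM2 to MCM7 on each of the 8 arrays by day (x axis), with siMLL/AF4 in red, siCtrl in blue and MOCK in grey. Lines join day 2 and day 4, and the dotted line marks the change of array version before day 6. With siMLL/AF4 all 6 genes were lower on day 4 than on day 2, with differences of -0.66 to -1.44.

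Among the proteins that load the ring, CDC6 was below siCtrl on all 3 days, and the difference was greater on the later days. CDC6 had 6.31, 5.29 and 2.68 with siMLL/AF4 on day 2, 4 and 6, against 6.46, 6.68 and 4.48 with siCtrl, and 6.71 and 6.47 in MOCK on day 2 and 4. The day 2 values of the 3 treatments lay close together, and on day 4 siMLL/AF4 was below both controls. The siMLL/AF4 value of day 6 lies under 3.48, the 25th percentile of all values, among the dim probes. The mean difference was -1.11 ± 0.38 (SE, n = 3 days, limma, unadjusted p = 0.0341, adjusted p = 0.638), and without day 6 it was -0.77. Its change was -0.41 ± 0.15 per day (limma, unadjusted p = 0.0402, adjusted p = 0.390).

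CDT1, the partner of CDC6 in loading, and geminin (GMNN), the inhibitor of CDT1, differed in opposite directions on day 2. CDT1 had 10.41, 9.53 and 8.98 with siMLL/AF4, against 9.32, 9.71 and 9.25 with siCtrl, and 10.13 and 9.81 in MOCK. GMNN differed from siCtrl by -1.22, 0.20 and 0.01 on day 2, 4 and 6. On day 2 siMLL/AF4 differed from MOCK by 0.28 for CDT1 and siCtrl by -0.81, so the control siRNA array was the farther from MOCK. For GMNN, siMLL/AF4 differed from MOCK by -0.51 and siCtrl by 0.71 on that day. Neither gene had an unadjusted p under 0.05 in any of the 5 tested comparisons. The origin recognition subunit ORC6 had 12.90, 13.49 and 15.07 with siMLL/AF4, against 13.14, 13.75 and 14.19 with siCtrl, and 12.81 and 13.28 in MOCK. Its second probe had 10.70, 11.15 and 10.47 with siMLL/AF4, against 10.68, 11.09 and 10.93 with siCtrl. The 2 ORC6 probes thus had opposite signs on every day, and on day 6 they differed from siCtrl by -0.46 and, for the brighter one, 0.88. ORC1, the largest subunit of the complex, differed by 0.35, 0.08 and -0.61.

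**Figure D4:**
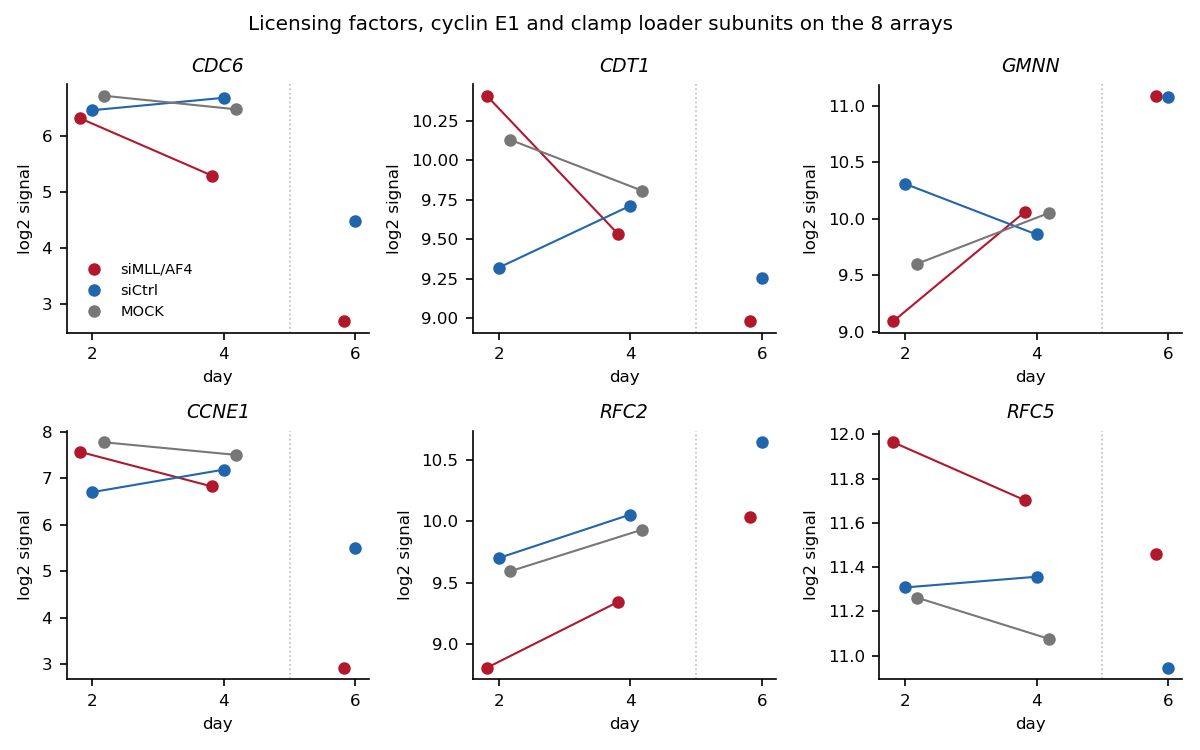
The log2 signal (y axis) of CDC6, CDT1, GMNN, CCNE1, RFC2 and RFC5 on each of the 8 arrays by day (x axis), in the colours siMLL/AF4 red, siCtrl blue and MOCK grey. At the probes shown, the brightest of each gene, RFC2 lies lowest and RFC5 highest with siMLL/AF4 on all 3 days. CDT1 and GMNN are apart from siCtrl on day 2 and near it afterwards.

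The promoters of these genes were looked at because most of these genes shared one order of signs over the days and E2F sites are a known feature of replication genes. Promoter windows from RefSeq (GRCh38.p14), 250 bases before to 50 after each annotated start, matched 39 of the 43 genes. There was no window for MCM4, MCM5, CCNE2 and RPA2. Windows were searched on both strands for TTTGGCGC, TTTCCCGC, TTTCGCGC and TTTGCCGC, which are E2F sites, and for CCAAT, the box bound by NF-Y. At least 1 E2F match was found for 22 of 39 genes, 56.4%, against 3.99% of the 27305 genes in the table, and in 43.4% of the 53 windows of these genes against 3.31% of all 35116 windows. CCAAT was found for 22 of 39 genes, 56.4%, against 39.7% of all. E2F matches were most frequent in origin licensing, at 7 of 9 genes. To compare the positions of the matches, windows are shown for MCM2, MCM3, MCM6 and MCM7, which were higher on day 2 and lower later. Windows of CDC6 and POLE, which were lower on all 3 days, are shown with them. Other MCM7 windows, at chr7:100100480-100100779 and chr7:100100705-100101004, held CCAAT and no E2F match. The windows shown were picked because they hold an E2F match. Each is 200 bases, from 170 before to 30 after the start, read along the gene, with E2F and CCAAT matches in capitals: MCM2 at chr3:127598241-127598440 on the plus strand, MCM3 at chr6:52284713-52284912 on the minus strand, MCM6 at chr2:135876414-135876613 on the minus strand, MCM7 at chr7:100101368-100101567 on the minus strand, CDC6 at chr17:40287709-40287908 on the plus strand and POLE at chr12:132687313-132687512 on the minus strand.
MCM2: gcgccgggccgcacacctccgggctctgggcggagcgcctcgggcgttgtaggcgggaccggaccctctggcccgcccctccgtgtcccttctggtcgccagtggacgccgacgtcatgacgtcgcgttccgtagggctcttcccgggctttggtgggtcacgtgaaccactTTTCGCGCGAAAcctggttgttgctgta
MCM3: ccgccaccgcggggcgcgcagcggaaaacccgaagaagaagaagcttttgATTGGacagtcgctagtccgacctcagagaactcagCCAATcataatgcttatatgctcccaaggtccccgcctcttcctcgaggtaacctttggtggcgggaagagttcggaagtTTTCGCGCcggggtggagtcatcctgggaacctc
MCM6: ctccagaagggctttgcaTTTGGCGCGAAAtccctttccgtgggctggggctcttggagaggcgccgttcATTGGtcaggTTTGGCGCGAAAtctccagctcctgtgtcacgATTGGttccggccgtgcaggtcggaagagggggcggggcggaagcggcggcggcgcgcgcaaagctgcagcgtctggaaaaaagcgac
MCM7: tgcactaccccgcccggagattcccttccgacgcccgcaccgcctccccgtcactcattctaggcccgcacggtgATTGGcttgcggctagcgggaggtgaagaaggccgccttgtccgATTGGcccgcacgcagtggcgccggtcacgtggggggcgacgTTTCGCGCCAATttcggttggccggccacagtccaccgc
CDC6: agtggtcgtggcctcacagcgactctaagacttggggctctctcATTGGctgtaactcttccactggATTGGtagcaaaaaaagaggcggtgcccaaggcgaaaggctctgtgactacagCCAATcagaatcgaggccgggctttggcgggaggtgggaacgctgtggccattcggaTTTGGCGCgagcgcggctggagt
POLE: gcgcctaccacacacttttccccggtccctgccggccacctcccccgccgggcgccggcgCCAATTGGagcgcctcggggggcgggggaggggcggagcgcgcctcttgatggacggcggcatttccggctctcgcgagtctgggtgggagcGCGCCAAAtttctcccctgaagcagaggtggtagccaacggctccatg
In MCM2 the overlapping matches TTTCGCGC on either strand form 1 place just after the start. MCM6 has 2 such places upstream, each with TTTGGCGC on one strand and TTTCGCGC on the other, and in MCM7 the E2F match overlaps a CCAAT match. A further match, TTTCCCGC, lies wholly upstream of the stretch shown in MCM7, and in MCM3 it runs across the upstream end of the stretch and is left in lower case. CDC6 and POLE have TTTGGCGC near the start, read on the opposite strand in POLE. The 21 measured genes with an E2F match had median differences of 0.26, -0.36 and -0.28 on day 2, 4 and 6, and the 17 without had 0.24, -0.26 and -0.27. Lower on day 4 were 19 of 21 genes with a match and 15 of 17 without. A match is a run of letters and does not show that a factor binds there.

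Helicase activation brings CDC45 and the GINS subunits to the ring with the help of MCM10. MCM10 had 10.33, 10.32 and 10.00 with siMLL/AF4 on day 2, 4 and 6, against 10.33, 10.64 and 10.48 with siCtrl, and 10.10 and 10.39 in MOCK on day 2 and 4. GINS2 had 11.52, 11.83 and 11.55 with siMLL/AF4, against 11.82, 11.93 and 11.78 with siCtrl, and 12.16 and 12.08 in MOCK. GINS3 had 10.50, 10.22 and 10.09 with siMLL/AF4, against 10.32, 10.58 and 10.19 with siCtrl, and 10.79 and 10.70 in MOCK. The differences were small, and all 4 measured genes of this step, CDC45 included, were below siCtrl on day 4 and day 6, with differences of -0.09 to -0.48. The dimmer MCM10 probe was lower on all 3 days, with differences of -0.42, -0.45 and -0.47, while the brighter one was at 0.00 on day 2. None of the 4 passed (limma, adjusted p between 0.876 and 0.992).

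Among the polymerases, POLE, the catalytic subunit of polymerase epsilon on the leading strand, had the largest difference. POLE had 10.27, 8.97 and 8.93 with siMLL/AF4 on day 2, 4 and 6, against 11.50, 9.66 and 9.44 with siCtrl, and 9.97 and 10.04 in MOCK on day 2 and 4. It was below siCtrl on each day, with a mean difference of -0.81 ± 0.26 (SE, n = 3 days, limma, unadjusted p = 0.0263, adjusted p = 0.602). On day 2 siMLL/AF4 stood 0.30 above MOCK and siCtrl 1.53 above it, and on day 4 siMLL/AF4 differed from MOCK by -1.07 and siCtrl by -0.38.

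POLD1, the catalytic subunit of polymerase delta, and POLA1, that of polymerase alpha, were the 2 polymerase genes with an unadjusted p under 0.05 between day 4 and day 2 in the third comparison. POLD1 had 10.22, 8.87 and 9.72 with siMLL/AF4, against 10.38, 9.26 and 9.97 with siCtrl, and 9.79 and 9.16 in MOCK. POLA1 had 9.35, 8.74 and 9.58 with siMLL/AF4, against 10.04, 8.84 and 9.42 with siCtrl, and 9.08 and 8.26 in MOCK. Both were lower on day 4 than on day 2 in all 3 treatments. A dimmer POLA1 probe had 5.25, 3.62 and 4.85 with siMLL/AF4, against 4.87, 2.90 and 6.14 with siCtrl. In MOCK that probe had 4.30 and -0.25. It also fell from day 2 to day 4 in all 3 treatments. Its difference from siCtrl had the opposite sign to that of the brighter probe on all 3 days. POLA2, the regulatory subunit of polymerase alpha, had 10.57, 9.92 and 9.70 with siMLL/AF4, against 9.91, 10.07 and 9.85 with siCtrl, and 10.34 and 10.25 in MOCK. POLE2, a smaller subunit of polymerase epsilon, differed by 0.26, -0.50 and 0.08, and PRIM1, the catalytic subunit of primase, by 0.13, -0.02 and -0.08.

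Replication factor C opens the PCNA ring and places it around DNA. At their brightest probes, 2 of its subunits kept opposite signs on every day. RFC2 had 8.81, 9.35 and 10.03 with siMLL/AF4 on day 2, 4 and 6, against 9.70, 10.05 and 10.64 with siCtrl, and 9.59 and 9.93 in MOCK on day 2 and 4. RFC5 had 11.96, 11.70 and 11.46 with siMLL/AF4, against 11.31, 11.36 and 10.95 with siCtrl, and 11.26 and 11.08 in MOCK. At these probes siMLL/AF4 was below both controls for RFC2 on each day they were measured, and above both for RFC5. The mean difference of RFC2 was -0.74 ± 0.23 (SE, n = 3 days, limma, unadjusted p = 0.0228, adjusted p = 0.586), and that of RFC5 was 0.51 ± 0.23 (SE, n = 3 days, limma, unadjusted p = 0.0773, adjusted p = 0.719). The dimmer RFC2 probe differed by 0.29, -0.68 and -0.63, so the day 2 sign depends on the probe.

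RFC3, another subunit of the loader, had 11.78, 11.05 and 9.73 with siMLL/AF4, against 11.39, 11.30 and 10.45 with siCtrl, and 10.94 and 11.08 in MOCK. Its difference was 0.39, -0.25 and -0.71 on day 2, 4 and 6, and that of RFC4 was 0.27, -0.22 and -0.17. The flap endonuclease FEN1 (0.28, -0.00 and -0.44) and RPA2, a subunit of the single-strand binding complex (0.34, -0.16 and -0.19), also were above siCtrl first and below it later. DNA ligase LIG1 was slightly lower on all days, at -0.09, -0.10 and -0.30. The clamp PCNA itself differed by -0.40, 0.18 and -0.33 at its brightest probe and by 1.15, 0.17 and -0.17 at another.

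Nucleotide supply was the step in which every measured gene had the same order of signs. Of its 5 genes all were above siCtrl on day 2 (0.02 to 0.80), below it on day 4 (-0.25 to -0.45) and below it on day 6 (-0.03 to -0.82). DUT, which removes dUTP, had 10.25, 9.23 and 9.10 with siMLL/AF4 on day 2, 4 and 6, against 9.45, 9.68 and 9.38 with siCtrl, and 10.03 and 9.94 in MOCK on day 2 and 4. TK1, the cytosolic thymidine kinase of the salvage route, had 10.92, 10.69 and 10.32 with siMLL/AF4, against 10.90, 11.02 and 11.14 with siCtrl, and 11.78 and 11.72 in MOCK. RRM2, the small subunit of ribonucleotide reductase, had 13.11, 12.19 and 10.69 with siMLL/AF4, against 12.82, 12.57 and 10.96 with siCtrl, and 12.19 and 11.67 in MOCK. For TK1 both siRNA groups lay below MOCK, and for RRM2 both lay above it. RRM1, its large subunit, and TYMS, which makes thymidylate, differed by 0.24, -0.33 and -0.03 and by 0.06, -0.25 and -0.48. The other probes of DUT differed by 0.31, -0.43 and -0.54 and by 0.03, 0.38 and -1.08.

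Among the genes of S-phase entry, CCNE1, which encodes cyclin E1, the partner of CDK2 at the G1/S boundary, had the widest span over the days. CCNE1 had 7.57, 6.83 and 2.92 with siMLL/AF4 on day 2, 4 and 6, against 6.71, 7.19 and 5.51 with siCtrl, and 7.78 and 7.51 in MOCK on day 2 and 4. It was above siCtrl on day 2 and below it on day 4 and 6, and the siMLL/AF4 value of day 6 lies under the 25th percentile of all values (3.48), so no fold is given for that day. The change of its difference was -0.86 ± 0.15 per day (limma, unadjusted p = 0.00285, adjusted p = 0.284, 1 residual degree of freedom). With day 6 left out its mean difference was 0.25, against -0.70 over the 3 days, so its sign rests on the day 6 pair. A second, dimmer CCNE1 probe had a value on 6 of the 8 arrays and on day 6 differed by 0.92, in the other direction. In that test of change with day 0.00% of all genes passed, 12.0% had an unadjusted p under 0.05. Of the replication genes 2 of 41 had one, both with a negative change, against 7.31% of all genes with a negative and 4.74% with a positive change, and 31 of 41 had a change below 0, against 56.9%.

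E2F1, a transcription factor that switches on many S-phase genes, had 5.37, 5.01 and 7.22 with siMLL/AF4, against 4.94, 5.55 and 6.16 with siCtrl, and 4.03 and 4.84 in MOCK. On day 2 and 4 these signals run from 4.03 to 5.55, around the median of all values, 5.16, and with day 6 left out its mean difference was -0.06, against 0.32 over the 3 days. E2F2, a second E2F factor, differed by -0.02, -0.20 and 0.55. Both were higher than siCtrl on day 6, when most of the replication genes were lower.

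Chromatin is rebuilt behind the fork, and 4 genes of the list serve this. CHAF1A, the large subunit of the histone chaperone CAF-1, had 7.93, 7.76 and 7.00 with siMLL/AF4, against 8.04, 8.01 and 7.99 with siCtrl, and 7.65 and 8.08 in MOCK. SLBP, which binds the stem-loop of histone mRNAs, had 11.55, 10.88 and 11.06 with siMLL/AF4, against 11.07, 11.21 and 11.30 with siCtrl, and 11.92 and 11.90 in MOCK. The dimmer SLBP probe had 9.03, 9.16 and 11.26 with siMLL/AF4, against 9.17, 9.25 and 11.68 with siCtrl. It was below siCtrl on every day, so the day 2 sign of SLBP depends on the probe. UHRF1, which recruits the maintenance DNA methyltransferase, had 14.70, 13.26 and 12.78 with siMLL/AF4, against 14.30, 13.73 and 12.84 with siCtrl, and 13.78 and 12.97 in MOCK. All were below siCtrl on day 4 and day 6, and so was CHAF1B, the CAF-1 middle subunit, with 0.38, -0.04 and -0.57. On day 6 the 2 CAF-1 subunits differed from siCtrl by -0.98 (CHAF1A) and -0.57 (CHAF1B).

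The second comparison set the siRNA groups against MOCK, the cells pulsed without siRNA. It shares its siMLL/AF4 and siCtrl arrays with the first, and the MOCK arrays serve both contrasts below. On day 4 33 of 41 replication genes were lower with siMLL/AF4 than in MOCK, against 50.0% of all 8886 genes tested, with a median of -0.29. For siCtrl against MOCK on day 4 the count was 21 of 41, against 50.8%, with a median of -0.003. At least 2-fold lower on day 4 were 5 of 41 with siMLL/AF4, against 6.77% of all genes, and 0 with siCtrl, against 6.01%. On day 2 25 of 41 were higher with siMLL/AF4, against 55.6%, and 23 of 41 with siCtrl, against 44.6%.

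In the model of all 8 arrays with day as a block, 0.00% of genes passed in either contrast (limma, 3 residual degrees of freedom), and 21.4% and 19.9% of all genes had an unadjusted p under 0.05 for siMLL/AF4 and siCtrl. With siMLL/AF4 3 of 41 replication genes had one and were lower, against 9.59% of all genes, and 2 were higher, against 11.8%. With siCtrl 2 were lower, against 8.18%, and 2 higher, against 11.7%. Altogether 25 of 41 lay below MOCK with siMLL/AF4, against 49.7% of all genes, and 18 of 41 with siCtrl, against 52.0%. TK1 differed from MOCK by -1.06 ± 0.27 with siMLL/AF4 (SE, limma, adjusted p = 0.162) and by -0.68 ± 0.27 with siCtrl (limma, adjusted p = 0.242). SLBP differed by -0.75 ± 0.28 with siMLL/AF4 (limma, adjusted p = 0.208) and by -0.72 ± 0.28 with siCtrl (limma, adjusted p = 0.241). RRM2 differed by 0.68 ± 0.25 with siMLL/AF4 (limma, adjusted p = 0.209) and by 0.80 ± 0.25 with siCtrl (limma, adjusted p = 0.214). At the probes used, the sign was the same with either siRNA for these 3 genes. The dimmer SLBP probe differed from MOCK by -0.19 ± 0.23 with siMLL/AF4 and by 0.02 ± 0.23 with siCtrl (SE, limma). With siMLL/AF4, RFC5 differed by 0.67 ± 0.22 (limma, adjusted p = 0.186) and RFC2 by -0.65 ± 0.22 (limma, adjusted p = 0.190), while POLA1 was among the 4 for siCtrl, at 0.68 ± 0.27 (limma, adjusted p = 0.248).

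The third comparison followed the replication genes from day 2 to day 4 within each treatment, on 1 array version. Since pulses were repeated at intervals of 2 days, time and the number of pulses cannot be told apart in it. With siMLL/AF4 35 of 41 were lower on day 4, against 56.9% of all 10230 genes tested, with medians of -0.61 and -0.12. With siCtrl 18 of 41 were lower, against 44.7%, with medians of 0.05 and 0.09, and in MOCK 26 of 41 were lower, against 47.6%, with medians of -0.08 and 0.02. At least 2-fold lower were 7 of 41 with siMLL/AF4 (against 9.15% of all genes), 3 with siCtrl (against 9.78%) and 0 in MOCK (against 4.93%). For MCM2 to MCM7 the median was -0.96 with siMLL/AF4, against -0.13 with siCtrl and -0.09 in MOCK. The siMLL/AF4 difference between days contains the day 2 and day 4 values of the first comparison and is not separate evidence of it.

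**Figure D5:**
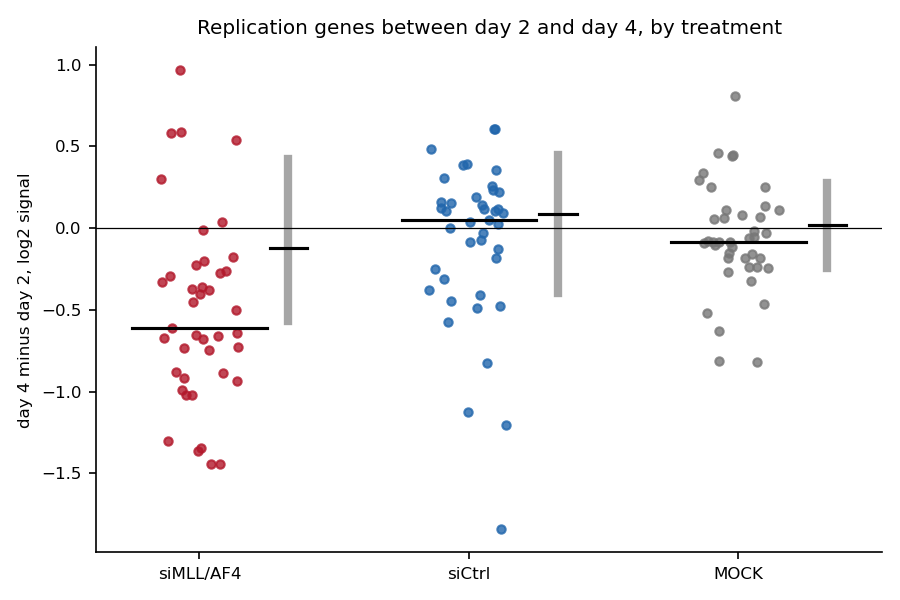
The difference day 4 minus day 2 in log2 signal (y axis) for the 41 measured replication genes (points) in siMLL/AF4, siCtrl and MOCK (x axis, points spread sideways for clarity). The wide black line is the median of the replication genes (-0.61, 0.05 and -0.08), and the grey bar and short line beside it are the quartiles and median of all 10230 genes.

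Over the 3 treatments, with treatment as a block, day 4 against day 2 gave 0.00% of genes with an adjusted p under 0.05 and 10.4% with an unadjusted p under 0.05 (limma, 2 residual degrees of freedom). Of the replication genes 4 of 41 were lower with an unadjusted p under 0.05, against 6.30% of all genes, and 1 was higher, against 4.15%. POLD1 differed by -1.03 ± 0.24, UHRF1 by -0.94 ± 0.26, MCM4 by -0.88 ± 0.26 and POLA1 by -0.88 ± 0.23 (SE, limma), and ORC6 by 0.55 ± 0.20, each with an adjusted p of 0.461. These 5 genes had the same sign in all 3 treatments. Below 0 were 32 of 41 replication genes, against 49.7% of all genes, and without the siMLL/AF4 pair of arrays 18 of 41 were. The share of all genes in that reduced fit is not given here. In siCtrl alone 44.7% and in MOCK alone 47.6% of all genes were lower on day 4.

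To see how far the pattern extends, 44 further replication and S-phase genes were counted, of which 38 were measured. On day 2, 14 of 38 were higher than siCtrl, 36.8%, against 55% of all genes. Lower on day 4 were 29, 76.3%, against 51.8%, and lower on day 6 were 23, 60.5%, against 55.1%. Their medians were -0.15, -0.24 and -0.09, against 0.09, -0.02 and -0.07 for all genes. The order higher, lower, lower was found for 9 of 38 genes, 23.7%, against 58.5% of the 41 genes above and 17.1% of all genes. The 2 lists were not tested against each other. None of the 38 passed the knock-down test averaged over the days, and 2 had an unadjusted p under 0.05 (limma), both lower. MYBL2, a transcription factor of the late G1 and S phase, had 2.75, 1.01 and 4.37 with siMLL/AF4 on day 2, 4 and 6, against 4.20, 5.68 and 6.99 with siCtrl, and 5.67 and 4.47 in MOCK on day 2 and 4. It was below siCtrl on all 3 days (limma, adjusted p = 0.510), but the siMLL/AF4 signals of day 2 and 4 lie under the 25th percentile of all values, so the size of the difference is not given. POLD4, a small subunit of polymerase delta, had 6.27, 7.19 and 7.96 with siMLL/AF4, against 7.28, 7.56 and 8.58 with siCtrl, and 8.25 and 8.18 in MOCK (mean difference -0.66 ± 0.25, SE, n = 3 days, limma, adjusted p = 0.671).

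Probes of one gene did not always agree. Of the 15 replication genes with more than 1 probe measured on all siRNA arrays, all probes had 1 sign for 7 genes on day 2, 12 on day 4 and 10 on day 6. Taking every probe as its own row, 17 of 59 were below siCtrl on day 2, 51 of 59 on day 4 and 48 of 59 on day 6. With 1 probe per gene, 45%, 51.8% and 55.1% of all genes were below siCtrl on these days. The shares of all probes are not given here.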

How the data were processed

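Biotin-labelled RNA from 8 SEM samples was measured on Illumina bead arrays, per the labels. The submitters' processing notes name GenomeStudio without a version. How background was corrected and arrays were normalized is not given in the sources used here. Values deposited by the authors were read as natural log signals, a base inferred from the numbers and stated by no source. Null entries (28.5% to 28.8% of probes per array) were treated as missing. Division by ln 2 gave log2 signals. Probes entered a fit if no array of it was Null and their mean reached the median of probe means in each array version. The brightest such probe represented its gene. All columns mapped to a sample.

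Tests used limma 3.58.1 in R 4.3.3 (lmFit, eBayes, two-sided, Benjamini-Hochberg over all genes tested), with day as a block, since the replicate number of the labels is the time point. Same-day siMLL/AF4 and siCtrl arrays deviated together from their group means (correlations 0.469, 0.281 and 0.618). The highest correlation of the same siMLL/AF4 arrays with a siCtrl array of another day was 0.292, 0.0741 and -0.39. The day 6 pair also shares its array version. For change with day the product of treatment and day was added. For MOCK all 8 arrays entered, and for day 4 against day 2 the 6 arrays of these days with treatment as a block. Each model was run on simulated data with independent noise and known differences of 2-fold or more. The check was that the mean estimate lay near the difference put in. Smaller differences were not simulated.

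Values on every array are given for the 3 genes per sub-step with the largest mean absolute difference and for any with an unadjusted p under 0.05, and others by their differences. The genes and lists were chosen with earlier results of these data known. Symbols came from the platform annotation, updated through RefSeq identifiers. Figures used matplotlib 3.10.9.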

Additional observations from a re-analysis of the deposited data

How the results depend on the processing

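With 1 array per treatment and day, the number of arrays limits every value. No gene passed the main tests, so no call could reverse. In the knock-down averaged over days 0 replication genes passed under any alternative, while the count of all genes passing (0) was 39 with an offset of 64, 19 with the filter at the 70th percentile and 32 with a trended robust variance. For change with day it was 329, 435 and 386 in that order and 47 for day 6 against the mean of days 2 and 4. For siMLL/AF4 against MOCK it was 360, 97 and 375, and 1 replication gene, TK1, passed with the offset (limma, adjusted p = 0.0393) and with the robust variance (0.0346). For day 4 against day 2 it was 176 with the offset and 95 with the robust variance, with 5 replication genes (MCM4, POLA1, POLD1, POLE and UHRF1) and 2 (POLD1 and UHRF1) passing. With every probe as its own row 38 of 59 were lower with siMLL/AF4 than in MOCK, against 25 of 41 genes. The median of siCtrl against MOCK was 0.08, and -0.0432 with the mean of probes, -0.0818 with no replicate block and -0.0251 with the 6 arrays of days 2 and 4. The cause of these shifts was not tested. With no replicate block 33 of 41 replication genes were lower with the knock-down (median -0.16), 31 of 41 with siMLL/AF4 against MOCK and 27 of 41 with siCtrl against MOCK, and no gene passed. Without the block, MOCK is set against siRNA groups that include day 6, a day and array version that MOCK lacks. The shares of all genes lower under this setting are not given here, so these counts have no background. Leaving out a time point gave 25 to 35 of 41 lower and medians of -0.27 to -0.06 for the knock-down, 19 to 33 and -0.29 to 0.07 for siMLL/AF4 against MOCK, and 15 to 19 and 0.06 to 0.08 for siCtrl against MOCK. Without day 6 the mean difference was 0.25 for CCNE1 and -0.06 for E2F1, the other sign from that over 3 days. For day 4 against day 2, leaving out MOCK, siCtrl or siMLL/AF4 gave 32 of 41, 33 of 42 and 18 of 41 lower, with medians of -0.24, -0.30 and 0.02.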
